A study of Mus musculus with 18 samples.

Results

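The B cell receptor is a membrane immunoglobulin that binds antigen and signals through a pair of partner chains, CD79A and CD79B, whose tails carry the activation motifs that Src family kinases and SYK act on. Its coreceptor includes CR2 (CD21), which binds complement fragments on antigen, and the tetraspanin CD81, and lowers the amount of antigen a B cell needs. CD22, a lectin for sialic acid, and CD72 carry inhibitory motifs that recruit the phosphatase SHP-1 and restrain the receptor. Accessible chromatin at 6 of these genes (Cd79a, Cd79b, Cr2, Cd81, Cd22 and Cd72) was compared between B and T cells of the mouse spleen. Each region of the deposited table went to the protein-coding gene with the nearest gene end within 50 kb, which gave these genes 18 of 27396 regions. Cd79b and Cr2 had 4 regions each, Cd81, Cd22 and Cd72 had 3 each and Cd79a had 1.

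ATAC-seq, in which a transposase cuts and tags open DNA, was run on fresh frozen spleen sections of wild-type C57BL/6J mice that were tagmented in place. Immunostained B and T cells were then cut out by laser capture microdissection, either as 10 patches per library, labelled as 1000 cells, or as 100 single nuclei. Each cell type had 5 patch libraries and 4 libraries of 100 nuclei. The submitters call the libraries of a condition technical replicates. No label ties a library to a mouse or gives the ages of the mice, and a patch can hold other cells of its zone. P-values therefore measure the spread between libraries only.

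Totals ran from 2193837 to 7343204 counts per patch library and from 319481 to 1076765 per library of 100 nuclei. Regions at 11 B cell marker genes, of which 4 are members here, took 0.149 to 0.219% of nuclear counts in B patches and 0.0259 to 0.0486% in T patches. Regions at the 11 of 12 T cell marker genes that had one took 0.0338 to 0.0502% and 0.142 to 0.208%. At 100 nuclei the B cell markers took 0.145 to 0.392% in B and 0.0108 to 0.065% in T, and the T cell markers 0.0297 to 0.051% and 0.169 to 0.242%, so all 18 libraries followed their labels. Mitochondrial DNA took 18.8 to 33.6% of counts in B patches and 16.1 to 23.1% in T patches, and at 100 nuclei 29.4 to 45.8% in B and 24.3 to 33.6% in T. Markers of other spleen cells had few regions. Those of macrophages and monocytes (2 of 8 genes, 5 regions) took 0.016 to 0.0255% in B patches and 0.00261 to 0.0104% in T patches, those of dendritic cells (3 of 6 genes, 8 regions) 0.0148 to 0.0269% and 0.0038 to 0.0123%, and those of stroma and endothelium (3 of 6 genes, 7 regions) 0.0124 to 0.019% and 0.0189 to 0.0303%. At 100 nuclei the macrophage regions took 0.00795 to 0.0251% in B and 0 to 0.00867% in T, the dendritic cell regions 0.00489 to 0.031% and 0 to 0.0529%, and the stromal regions 0.0165 to 0.043% and 0.0247 to 0.0525%. In the main test in patches, 1 of the 5 macrophage regions, near Adgre1, was called higher in B (log2 fold change 2.65 ± 0.7, SE; edgeR adjusted p = 0.0467). Of the dendritic cell regions 0 were called and 8 of 8 had a B minus T value above 0 (median 1.79). Of the stromal regions 0 were called and 3 of 7 were above 0 (median -0.33). In bulk captures such as these, more cells of a type and more open chromatin per cell cannot be told apart, and the part of these cells in the results was not tested. With mitochondrial regions left out, the same 3 member regions were called as in the main test below.

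Accessible regions covered or adjoined the start sites of Cr2, Cd79a, Cd81, Cd22 and Cd72. The stretches below are the parts of those regions that lie before the start site in RefSeq promoter windows (GRCm38.p6, the coordinates of mm10). They are shown because the start site regions of Cr2 and Cd81 set all B patches above all T patches, and those of Cd79a, Cd22 and Cd72 are their counterparts at the other genes. Each is written 5′ to 3′ on the strand of its gene, and capitals mark matches to the motifs named after them, of which the Cd81 stretch holds none. RefSeq windows matched 5 of the 6 genes, and Cd79b was not matched.
Cr2, chr1:195176720-195176934, minus strand: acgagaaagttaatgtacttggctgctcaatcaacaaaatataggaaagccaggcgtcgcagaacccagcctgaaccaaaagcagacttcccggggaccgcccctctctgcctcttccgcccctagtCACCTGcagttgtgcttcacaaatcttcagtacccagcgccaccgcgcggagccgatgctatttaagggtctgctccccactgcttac
Cd79a, chr7:24897247-24897462, plus strand: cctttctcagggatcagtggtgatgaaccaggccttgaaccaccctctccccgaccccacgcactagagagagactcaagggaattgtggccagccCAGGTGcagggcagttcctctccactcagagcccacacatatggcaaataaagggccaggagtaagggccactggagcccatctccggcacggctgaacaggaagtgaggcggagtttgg
Cd81, chr7:143052620-143052749, plus strand: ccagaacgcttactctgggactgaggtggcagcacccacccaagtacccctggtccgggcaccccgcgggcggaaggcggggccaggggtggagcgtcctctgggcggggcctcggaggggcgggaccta
Cd22, chr7:30879043-30879171, minus strand: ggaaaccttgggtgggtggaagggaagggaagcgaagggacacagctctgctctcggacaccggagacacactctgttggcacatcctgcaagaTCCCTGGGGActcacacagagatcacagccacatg
Cd72, chr4:43454627-43454741, minus strand: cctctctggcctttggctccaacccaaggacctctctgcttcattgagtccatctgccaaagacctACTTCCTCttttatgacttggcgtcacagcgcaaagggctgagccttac

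Motifs of factors known in lymphocytes were searched on both strands of each RefSeq window, 250 bases before to 50 bases after a start site. The EBF motif, TCCC and GGGA with 2 bases between them, was found at Cd22, 49 bases before the start site, and in 0.904% of all 32851 windows. The E-box CAGGTG was found at Cd79a, Cr2 and Cd22, against 20.2% of all windows. At Cr2 it reads on the opposite strand, as CACCTG in the sequence above, and at Cd22 it lies outside the stretch shown. The E-box CAGCTG was found at Cd81 (16.3% of all windows), in the window but outside the stretch shown, and the ETS motif GAGGAAGT at Cd72, again on the opposite strand (3.2%). The octamer ATGCAAAT, the IRF motif (GAAA and GAAA, 2 bases apart), the RUNX motif TGTGGT and the NF-kB motif (GGGA and TTCC, 2 bases apart) were found in 0 of the 5 windows (1.74, 3.44, 16.8 and 1.47% of all windows). These are letter matches and not measured binding. The Cd81 window had the most CpG dinucleotides, 23, and Cd22 the fewest, 4, against a median of 7 over all windows.

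In patches, regions of Cr2, Cd79b and Cd22 were more accessible in B than in T cells, and the region that differed least was at Cd72. Levels are normalized CPM, counts scaled to a common library size. Of the 18 regions, 16 passed the filter on low counts and were tested. In edgeR's quasi-likelihood test, with Benjamini-Hochberg adjustment over all 25712 tested regions, 3 of the 16 rose in B and 0 fell. They lay at the start of Cr2, beside Cd79b and upstream of Cd22. Among all tested regions 1.22% rose in B and 1.05% fell. The B minus T log2 fold change was above 0 in 15 of the 16, against 48.7% of all tested regions, and its median was 2.02, against -0.03 over all tested regions. An unadjusted p under 0.05 with a higher value in B was found in 11 of the 16, against 6.91%. The lowest B patch lay above the highest T patch in 4 of the 16, against 4.33%, and the highest B patch below the lowest T patch in 0, against 3.69%.

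**Figure D1:**
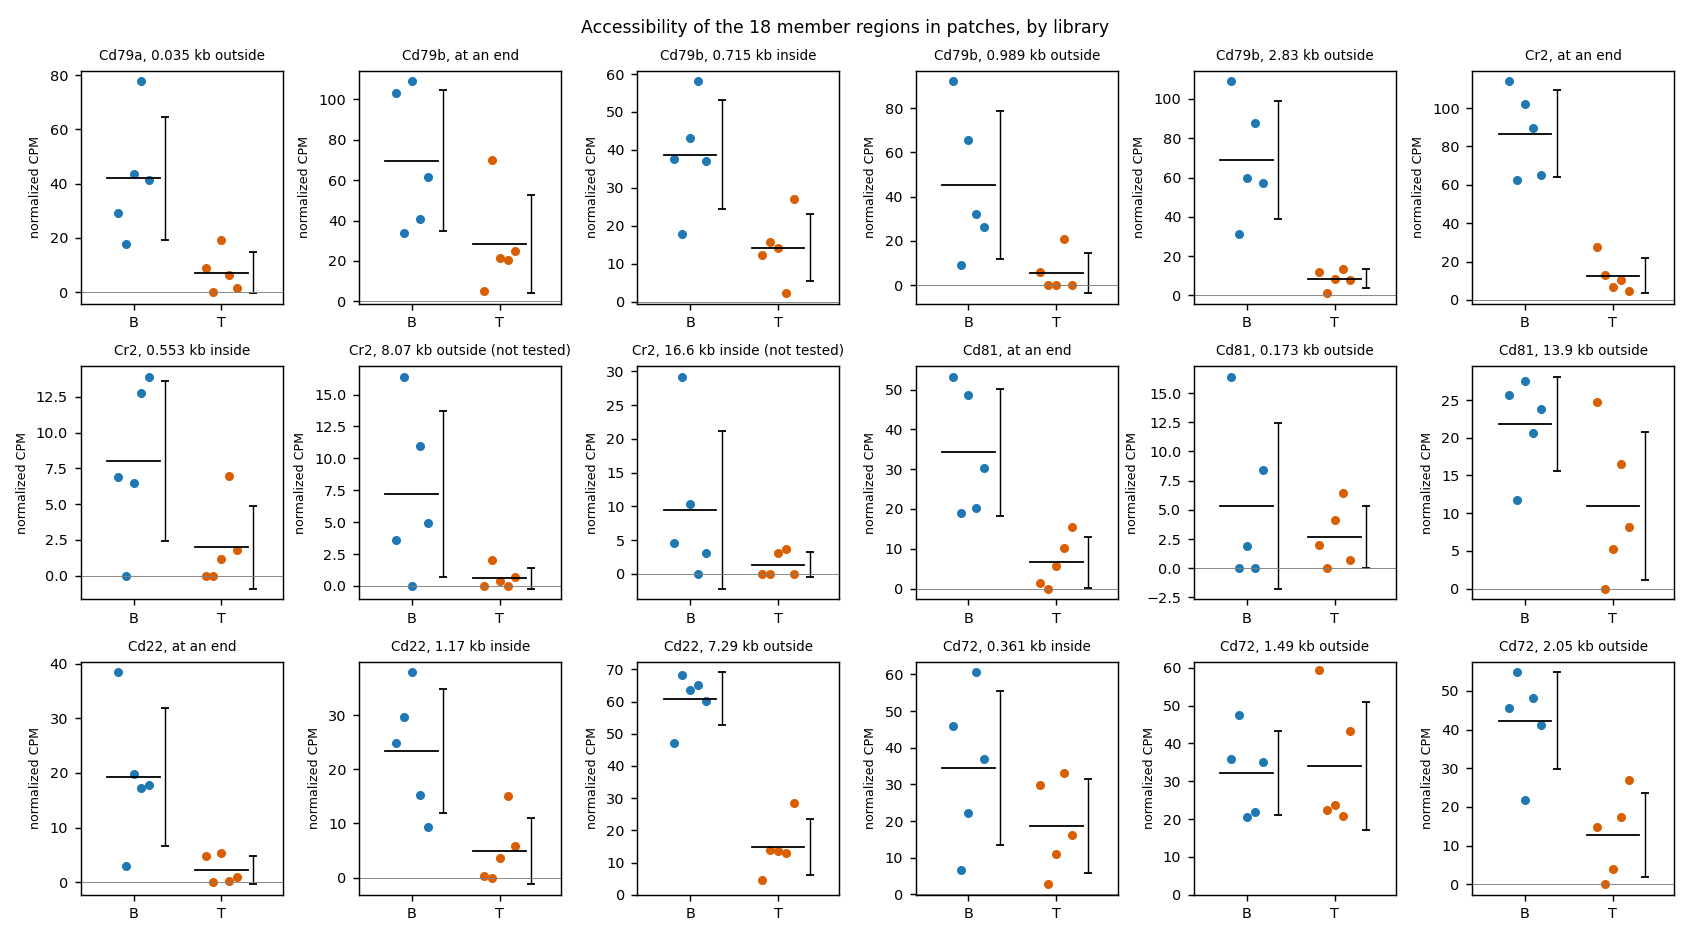
Normalized CPM (y axis, linear, one scale per panel) of the 18 regions in B patches (blue) and T patches (orange). Each point is a library, the line is the mean and the bar beside it the SD (n = 5 each). In panel titles an end is either boundary of the gene, and for Cr2 and Cd81 it is the start. The groups do not overlap at the start of Cr2, 2.83 kb outside Cd79b, 7.29 kb outside Cd22 and at the start of Cd81.

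Cd79b, the signalling chain known as Ig-beta, had its called region beside the gene, while the regions at the gene did not pass. The called region (chr11:106308276-106308507) lies 2.83 kb beyond the lower-coordinate end of the gene, with the next gene end, that of Gh, 4.57 kb away. It held 109, 31.4, 59.9, 87.7 and 57 normalized CPM in B patches 1 to 5. The T patches held 11.9, 1.2, 8.44, 13.5 and 7.96. All B patches lay above all T patches, and the log2 fold change was 2.99 ± 0.53 (SE; edgeR adjusted p = 0.00566). The call held without any 1 of the 10 libraries, with adjusted p of at most 0.0265. It was lost in a joint fit of all 18 libraries, where the value was 2.91 (adjusted p = 1). That fit called 0 of all 25712 tested regions in patches.

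The region over the other end of Cd79b (chr11:106314433-106314656) was open in both cell types. It held 103, 34, 109, 40.6 and 61.5 normalized CPM in B patches and 5.31, 70, 21.4, 20.7 and 25 in T patches. T patch 2, the shallowest patch library, lay above 3 of the 5 B patches, and the other T patches lay below all of them. The log2 fold change was 1.30 ± 0.51 and did not pass (adjusted p = 0.237). It passed without T patch 2 (1.92, adjusted p = 0.0343). The region inside the gene (chr11:106313695-106313847) had a log2 fold change of 1.44 ± 0.58 (adjusted p = 0.25). The one 0.989 kb beyond the lower end (chr11:106310205-106310352) had 3.06 ± 1.10 (adjusted p = 0.176), with 9.13 to 92.2 normalized CPM in B patches and reads in 2 of 5 T patches.

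Cd79a, which encodes the Ig-alpha chain, had a single region, 35 bases before its start site (chr7:24897241-24897462). In B patches it held 29, 17.9, 43.7, 77.8 and 41.3 normalized CPM. In T patches it held 8.86, 0, 19.2, 6.48 and 1.55. T patch 3 lay just above B patch 2, and the other T patches lay below all B patches. The log2 fold change of 2.51 ± 0.78 did not pass (adjusted p = 0.104), nor did it without any 1 library (0.0677 to 0.322). It passed without both libraries numbered 2, in DESeq2 and in libraries thinned to one depth, with adjusted p of 0.0233, 0.00626 and 0.0027. The next gene, Arhgef1, ends 5.52 kb away.

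Cr2, the complement receptor of the coreceptor, was most accessible over its start site. This region (chr1:195176439-195176934) held 114, 62.5, 102, 89.5 and 64.9 normalized CPM in B patches. T patches 1 to 5 held 27.8, 13.2, 6.72, 10.5 and 4.87. The groups were well apart, at 86.6 ± 22.6 against 12.6 ± 9.1 (SD, n = 5 each), a log2 fold change of 2.78 ± 0.45 (adjusted p = 0.00382). The call held without any 1 of the 10 libraries, with adjusted p of at most 0.0136. It was lost in a joint fit of all 18 libraries, where the value was 2.68 (adjusted p = 1). That fit called 0 of all 25712 tested regions in patches. In the main test the start region of Cr2 ranked 25 by p among the 25712.

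The other regions of Cr2 were thinly covered. The one inside the gene, 0.392 kb past the start site (chr1:195176183-195176327), held 0 to 13.9 normalized CPM in B patches and 0 to 6.98 in T patches (1.99 ± 1.52, adjusted p = 0.723). A region 8.24 kb before the start site (chr1:195184955-195185076) and one deep in the gene (chr1:195153430-195153538) did not pass the filter. Each had reads in 4 of 5 B patches, the first in 3 of 5 T patches and the second in 2 of 5. Follicular dendritic cells, which sit among B cells, also express Cr2. Of 8 marker genes listed for them, 2 had a region, Mfge8 and Ltbr, which together took 0 to 0.00434% of nuclear counts in B patches and 0.00151 to 0.00319% in T patches. Neither passed the test (log2 fold changes of 0.19 ± 1.10 and -0.55 ± 1.38, adjusted p = 0.986 and 0.962). Fdcsp, Cxcl13, Clu, Madcam1, Coch and Pdpn were assigned no region, and the part of these cells in the Cr2 result was not tested.

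Cd81, which encodes the tetraspanin of the coreceptor and is expressed in many tissues, was open over its start site in B patches. The region (chr7:143052620-143052920) held 53.2, 19, 48.5, 20.2 and 30.2 normalized CPM in B patches. Values in T patches were 1.52, 0, 5.8, 10.2 and 15.5. All B patches lay above all T patches, with B patch 2 only slightly above T patch 5. The log2 fold change of 2.36 ± 0.81 did not pass (adjusted p = 0.149). It passed without both libraries numbered 2, in DESeq2 and in thinned libraries, with adjusted p of 0.0421, 0.0165 and 0.0256. The regions 0.173 kb (chr7:143052469-143052577) and 13.9 kb (chr7:143038565-143038841) before the gene had log2 fold changes of 1 ± 1.58 and 1 ± 0.83 (adjusted p = 0.923 and 0.767). The value at 0.173 kb rested on B patch 1, without which it was -0.04.

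Cd22, the inhibitory lectin, had its called region upstream. It lies 8.60 kb before the start site of the RefSeq window and 7.29 kb beyond the gene (chr7:30887631-30888039), with Mag, a gene of myelin, 11.1 kb away. It held 47.1, 68.3, 63.7, 65.1 and 60.3 normalized CPM in B patches. Values in T patches were 4.55, 14, 13.7, 13 and 28.5. The B patches lay close together at 60.9 ± 8.25 and all above the T patches at 14.8 ± 8.65 (SD, n = 5 each). The log2 fold change was 2.04 ± 0.45 (adjusted p = 0.0208). The call was lost without B patch 3, B patch 4 or T patch 3, with adjusted p of at most 0.0563 and values of 1.81 to 2.42 over all libraries left out. It was also lost in the joint fit (1.97, adjusted p = 1), which called 0 of all tested regions in patches.

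The regions at Cd22 itself did not pass. The region over the 5′ end of the gene (chr7:30880267-30880383) lies 1.24 kb before the start site of the RefSeq window. It held 38.4, 2.92, 19.8, 17.3 and 17.8 normalized CPM in B patches and 4.81, 0, 5.4, 0.249 and 0.885 in T patches. B patch 2 lay within the range of the T patches, and the log2 fold change was 3.04 ± 1.11 (adjusted p = 0.189). At the start site of the RefSeq window (chr7:30879043-30879171) it was 2.24 ± 0.99 (adjusted p = 0.324), with 9.25 to 37.9 normalized CPM in B patches and 0 to 15 in T patches.

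Cd72, the other inhibitory receptor, held the tested region with the least difference. The region 1.96 kb before the start site and 1.49 kb outside the gene (chr4:43456588-43456799) held 36, 47.5, 20.6, 22 and 35 normalized CPM in B patches. The T patches held 59.5, 22.4, 23.7, 20.9 and 43.4. The 2 groups covered nearly the same range, and the log2 fold change was -0.08 ± 0.45 (adjusted p = 0.986). Without any 1 library it lay between -0.26 and 0.22.

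The region 2.53 kb before the start site (chr4:43457154-43457426) held 45.6, 54.8, 21.8, 48.2 and 41.1 normalized CPM in B patches. The T patches held 14.7, 0, 3.95, 17.5 and 27. B patch 3 lay below T patch 5 and the other B patches above all T patches, with a log2 fold change of 1.74 ± 0.72 (adjusted p = 0.271). Over the start site (chr4:43454514-43454741) the value was 0.89 ± 0.64 (adjusted p = 0.689), with 6.58 to 60.6 in B and 2.8 to 33.2 in T. Whether the neighbouring regions differ from each other in their B minus T value was not tested.

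**Figure D2:**
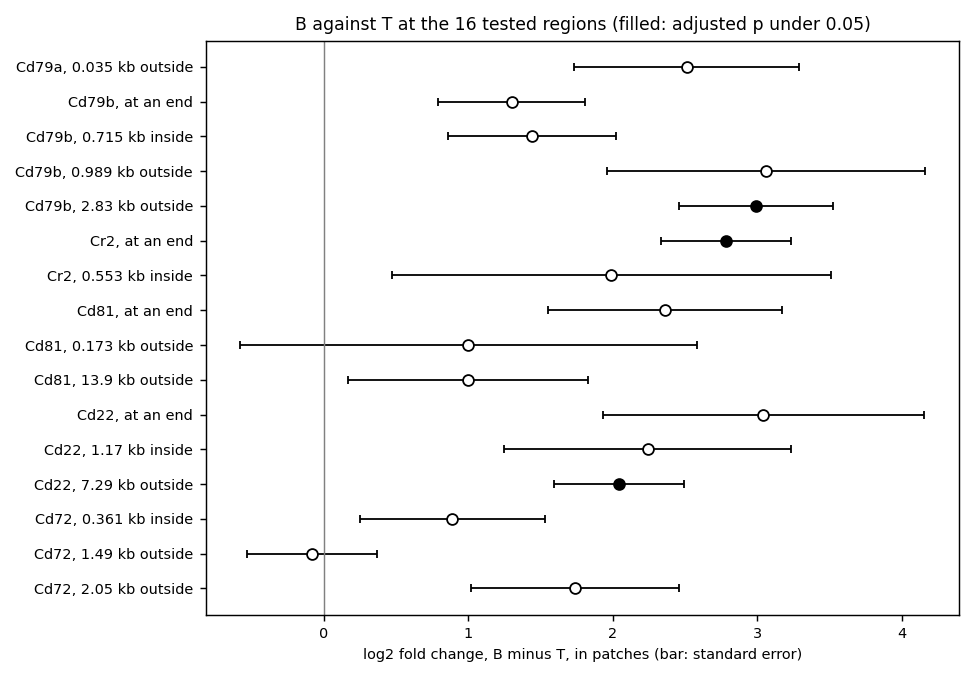
Log2 fold change, B minus T, in patches (x axis) for the 16 tested regions (rows, named by gene and distance to the gene end), with the SE as a bar. Filled points, at Cr2, Cd79b and Cd22, have an adjusted p under 0.05, and the region 1.49 kb outside Cd72 is the one value below 0, at -0.08.

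The regions were from 108 to 495 bases long, so levels were also put per length. Per kb of region, the 4 regions of Cd79b had the highest levels in B patches, from 255 ± 94.9 to 312 ± 156 normalized CPM per kb (SD, n = 5). Next came Cd79a at 190 ± 102, the 3 regions of Cd22 at 149 ± 20.2 to 182 ± 88.7, the start of Cr2 at 175 ± 45.6 and the regions of Cd72 at 152 ± 92.2 to 156 ± 45.8. Within each of these sets and between neighbouring sets the levels differed by less than the larger SD. The start of Cd81 stood at 114 ± 52.9, and the others of Cr2 and Cd81 at 49.5 ± 65.7 to 87.8 ± 108. In T patches the highest levels per kb were at Cd72, 161 ± 80.2 at the region 1.96 kb before its start site, and at the end of Cd79b, 128 ± 109, followed by 93.7 ± 58.1 inside Cd79b.

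At 100 nuclei, the start regions of Cr2 and Cd81 and the higher-coordinate end of Cd79b were read in all B libraries and in none of the T libraries. The other 15 regions were read in 0 to 6 of the 8 libraries. Of the 144 values (18 regions in 8 libraries), 47 had reads, with a median count of 36 where reads were present. At the start of Cr2 the B libraries 1 to 4 held 1, 31, 40 and 50 counts and the 4 T libraries held 0. At the higher-coordinate end of Cd79b they held 58, 20, 105 and 44 counts, and over the start of Cd81 36, 17, 46 and 61, again with 0 in the 4 T libraries. This pattern, reads in 4 of 4 B libraries and in 0 of 4 T libraries, held at 3 of the 16 tested regions and at 0.486% of all tested regions. The reverse pattern held at 0 of the 16 and at 0.0428% of all.

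The upstream region of Cd22 was read in 3 of 4 B libraries, at 0, 56, 100 and 44 counts, and in 0 of 4 T libraries. The called region beside Cd79b had reads in B library 1 alone, 18 counts, and the one 0.989 kb from Cd79b in B library 2 alone, 73 counts. Cd79a was read in 2 B libraries, at 4 and 82 counts, and in 2 T libraries, at 5 and 21. At Cd72 the region 2.53 kb before the start site was read in 3 libraries of each cell type. The 3 regions of Cr2 away from the start had 0 counts in all 8 libraries. In all, 9 of the 16 regions were read in more B than T libraries (43.0% of all tested regions) and 0 in more T than B libraries (23.1%).

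The edgeR test at 100 nuclei called 0 of the 16 regions, with adjusted p of 0.355 or more. The background was 0.0156% called higher in B, which is 4 mitochondrial regions, and 0 of the 25708 others were called with those left out. At an unadjusted p under 0.05 there were 5 of the 16, all higher in B, against 5.5% of all tested regions in either direction and 4.04% higher in B. DESeq2 called 0. Every B library lay above every T library at 3 of the 16 (1.05% of all) and below at 0 (0.124% of all). Fold changes are not given for the regions with reads in fewer than 3 libraries of a cell type. The Cd72 region 2.53 kb before the start site, with reads in 3 of each, had a log2 fold change of 1.78 ± 2.99 (edgeR adjusted p = 1). A count of 0 at these depths allows 2.79 to 9.39 CPM in a T library (3 counts, counting error only), and the reads are not independent molecules. This limit is per library total without TMM scaling, so it is not on the scale of the normalized CPM. T libraries 3 and 4 were thin, with reads in 15.2 and 12.7% of all tested regions, against 41 and 40.6% in T libraries 1 and 2 and 29.4 to 42.3% in B. Of the 18 regions here, T libraries 1 to 4 had reads in 7, 5, 0 and 1, and B libraries 1 to 4 in 8, 13, 8 and 5. T libraries 1 and 2 also had 0 counts at the start of Cr2, the higher-coordinate end of Cd79b and the start of Cd81. Reads in B libraries and in 0 of 4 T libraries were found at 6 of the 16 regions, against 21.4% of all tested regions. The reverse was found at 0 of the 16, against 14.3%. The part of coverage in these zeros was not tested.

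**Figure D3:**
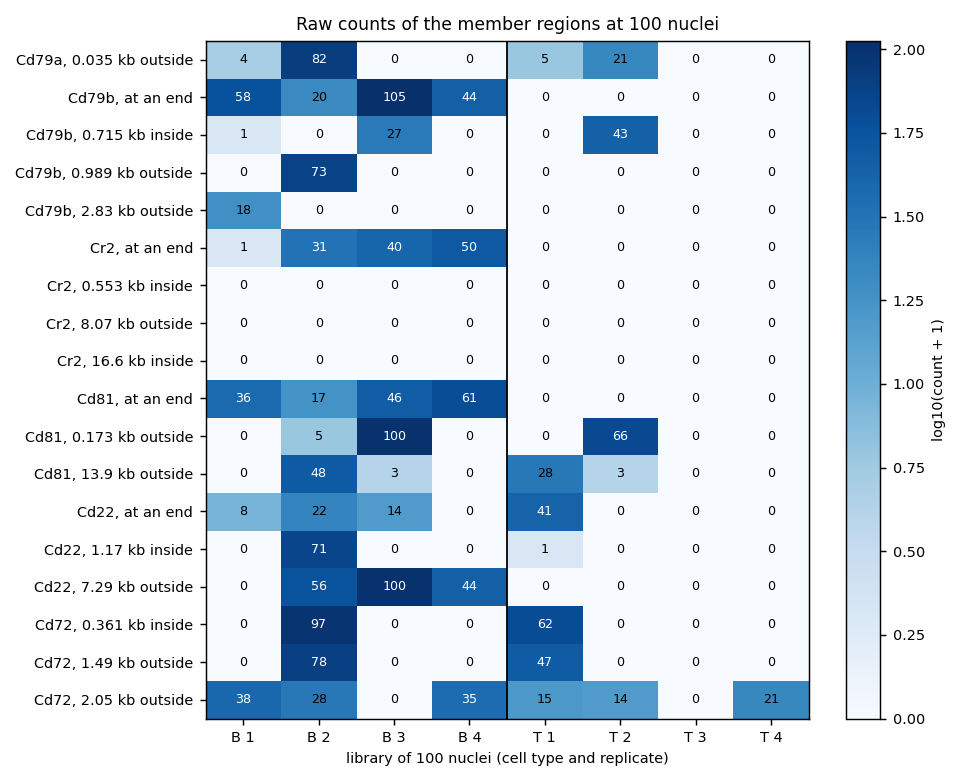
Raw counts (numbers in the cells, with colour as log10 of the count plus 1) of the 18 regions (rows) in the 8 libraries of 100 nuclei (columns, B on the left and T on the right of the line). The rows labelled at an end for Cd79b (its higher-coordinate end), Cr2 and Cd81 (their starts) are filled in the 4 B libraries and at 0 in the 4 T libraries.

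Whether the B minus T difference depended on the capture size was tested over all 18 libraries, and 0 of the 16 regions passed in edgeR (0 of 25712 in all). The smallest adjusted p of a member was 0.0725. At an unadjusted p under 0.05 there were 4 of the 16, against 27.1% of all regions, and 0 of these had the larger difference in patches (8.92% of all). These 4 were the start of Cr2, the higher-coordinate end of Cd79b, the upstream region of Cd22 and the start of Cd81. All had 0 counts in every T library of 100 nuclei, so the size of their difference at 100 nuclei is not measured. Without T library 1 of 100 nuclei the higher-coordinate end of Cd79b passed (adjusted p = 0.046), in a fit that called 419 of all 25712 regions. The fitted difference was the larger at 100 nuclei, again against T counts of 0. The fit over all 18 libraries has 1 estimate of the spread for both sizes. On that estimate B versus T called 0 of 25712 regions in patches and 6954 at 100 nuclei, against 583 and 4 in separate fits. The 0 of 16 therefore cannot show that the difference was alike at both sizes.

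Summed over the 18 regions, the 6 genes took 0.105, 0.0674, 0.0893, 0.0881 and 0.0717% of nuclear counts in B patches 1 to 5. The T patches took 0.0278, 0.0205, 0.0187, 0.0294 and 0.0271%. At 100 nuclei the B libraries took 0.0424, 0.157, 0.109 and 0.0715%. The T libraries took 0.0288, 0.0206, 0 and 0.00869%. At both sizes every B library lay above every T library, and the B libraries of 100 nuclei were spread most widely. The sum was not tested, since the genes were chosen as B cell genes.

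**Figure D4:**
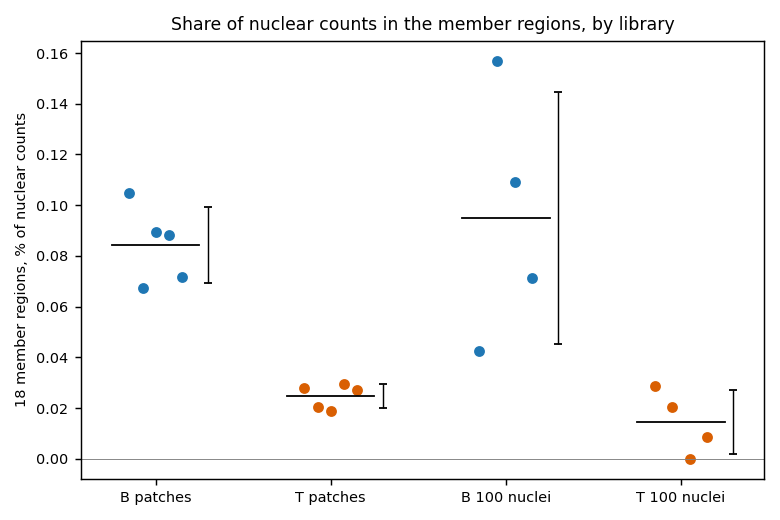
Share of nuclear counts in the 18 regions (y axis, %) by group. Each point is a library, the line is the mean and the bar the SD (n = 5 for patches, 4 for 100 nuclei). B libraries lie between 0.0424 and 0.157% and T libraries between 0 and 0.0294%.

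Among other genes of the pathway in patches, the surface partners rose most often. Of 24 tested regions at other coreceptors and B cell surface partners, 11 rose in B, at 8 of 8 genes, and 0 fell (median log2 fold change 1.84). Among them were Cd24a at 2.48 ± 0.46 (adjusted p = 0.00714), Cd38 at 2.27 ± 0.51 (adjusted p = 0.022) and Cd180, a relative of Toll-like receptors, at 5.47 ± 0.96 (adjusted p = 0.00561). At Ms4a1, which encodes CD20, the region held 14.1 ± 4.82 normalized CPM in B and 0 in all 5 T patches (adjusted p = 0.011).

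Of 84 regions at proximal kinases and adaptors 6 rose, at 5 genes, and 0 fell (median 1.38). The region 9.62 kb outside Syk, the kinase that docks on the CD79 tails, was 2.64 ± 0.37 higher on the log2 scale (104 ± 13.4 against 16.7 ± 8.28 normalized CPM; adjusted p = 0.00162). That 28.7 kb outside Lyn, a Src family kinase, was 2.51 ± 0.49 higher (adjusted p = 0.00933). A region inside Vav2, an exchange factor, lay 49.5 kb from the gene end and was at 3.34 ± 0.62 (adjusted p = 0.00714). One at an end of Plcg2, the phospholipase of the pathway, was at 1.65 ± 0.35 (adjusted p = 0.0155). Of 77 regions at downstream genes 4 rose, at 2 genes, and 0 fell (median 0.18). Nfatc1, a calcium-dependent transcription factor, was 1.95 ± 0.46 higher (adjusted p = 0.0269). At Rasgrp3, a Ras activator, the region held 11.6 ± 8.41 normalized CPM in B and 0 in all T patches (adjusted p = 0.0349). Rasgrp1, at 2.03 ± 0.78 (adjusted p = 0.221), did not pass. Of 38 regions at inhibitory genes 3 rose and 2 fell (median 0.24). Siglecg, a relative of Cd22, was higher by 5.27 ± 1.11 (adjusted p = 0.0146), Csk by 1.83 ± 0.41 (adjusted p = 0.0216) and Cblb by 2.11 ± 0.51 (adjusted p = 0.032), while Cd5, which T cells also express, fell by 2.15 on the log2 scale, with an SE of 0.46 (adjusted p = 0.0156). At the T cell receptor complex and coreceptors, 0 of 29 regions rose in B and 5 fell (median -1.73). These included Cd8b1 at -2.32 ± 0.53 (adjusted p = 0.0224), Cd28 at -4.25 ± 1 (adjusted p = 0.028) and Cd3g at -2.75 ± 0.68 (adjusted p = 0.0368). All of these stand against 1.22% higher and 1.05% lower among all tested regions, and the lists share genes (Cd5).

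The regions of other genes most like each member were ranked by Pearson's r of log2 CPM over the 10 patch libraries, among 12041 regions of at least median abundance. Libraries of a group share a cell type, and their depths differ. The B minus T log2 values of the regions named next ran from 0.62 to 3.08, apart from those named for Cd72. For the start of Cr2 they were at Lrrk2, Ets2 and Tcof1 (r = 0.96, 0.954 and 0.954). For the upstream region of Cd22 they were at Irgc1, Cenpe and Slc26a6 (0.958, 0.957 and 0.952), and for the start of Cd81 at Chst3, H2-DMb2 and Lat2 (0.984, 0.98 and 0.977). For the end of Cd79b they were at Arap1, Hcfc2 and Hhex (0.974, 0.959 and 0.94), and for Cd79a at Rfesd, Ift88 and Prorp (0.968, 0.964 and 0.961). The Cd72 region 1.96 kb before the start site was followed less closely, by regions at Elf4, Luc7l2 and Arrdc1 (0.898, 0.879 and 0.877), whose own B minus T values were 0.07, 0.08 and 0.14.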

How the data were processed

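The authors deposited raw counts per region for 18 libraries (mm10), and column names gave the library. The submitters' processing notes list MACS2 2.2.7.1, Bowtie2 2.4.5 and Trimmomatic 0.36, besides deepTools 3.5.2, bcl2fastq 2.20, Picard, R 4.1.0 and SAMtools 1.14. How regions were called and whether duplicates were removed or cut sites shifted was not stated in these notes, nor was the base (0 or 1) of the starts, which are printed as deposited. Gene ends came from RefSeq GRCm38.p6, and 86.7% of regions had one within 50 kb. Exons and introns were not used.

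Tests used edgeR 4.0.16 in R 4.3.3 (TMM, quasi-likelihood, filterByExpr with a minimum count of 10) on the whole table, with a threshold of 0.05 on the adjusted p. The SE is the fold change over the square root of F. CPM are TMM-scaled. DESeq2 1.42.0 and other settings were alternatives, and the fit was tested on simulated data, where it recovered changed regions in patches and called none of them at 100 nuclei. Named were each member's regions nearest an end, with most counts or called, the 4 genes of lowest p in a pathway list, and the 3 regions most like each member. Items withheld for evaluation are not reported here. The members and lists were chosen with earlier results of these data known. No 2 libraries were identical.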

Additional observations from a re-analysis of the deposited data

Results flagged for a closer look

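In groups of 4 or 5 libraries a single value was set far from the rest at these regions. Chance flags about 1 in 20 groups, and where 1 of 4 libraries has reads the rule is met by construction. In T patches, library 4 stood alone at the Cr2 region 0.392 kb past the start site (6.98 normalized CPM) and at the Cd79b region 0.989 kb beyond the gene (20.9).

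At 100 nuclei, B library 2 stood alone at 6 regions: 0.989 kb from Cd79b (140 normalized CPM), over the start of Cd72 (186), 1.96 kb before it (150), at Cd79a (158), at the start of Cd22 (136) and 13.9 kb from Cd81 (92.3). B library 3 stood alone inside Cd79b (45.0) and 0.173 kb from Cd81 (167), and B library 1 at the called region beside Cd79b (35.1). T library 1 stood alone over the start of Cd72 (75.5), 1.96 kb before it (57.2) and 13.9 kb from Cd81 (34.1). It also stood alone at the start site of the RefSeq window of Cd22 (1.22) and over the 5′ end of that gene (49.9). T library 2 stood alone inside Cd79b (50.8) and 0.173 kb from Cd81 (78.0).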

How the results depend on the processing

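For B versus T in patches, the count of 3 called regions was 6 in DESeq2, 6 with patches thinned to 319481 counts, 7 without both libraries numbered 2 and 0 in a joint fit of all 18 libraries. Without any 1 library it was 2 to 4. With a replicate block it was 3, the same regions. Correlations of same-numbered deviations were -0.00718 to 0.0332 in patches and -0.0138 to 0.0186 at 100 nuclei. Not every library was nearest its own number. The highest correlation of any B with any T library was 0.0738 in patches and 0.0223 at 100 nuclei. With values this low, whether the replicate numbers pair the libraries could not be told. With membership set to regions inside a gene or within 5 kb of it, the count was 2, since the upstream region of Cd22 lies farther out. For B versus T at 100 nuclei, the count of 0 became 7 in the joint fit and was 0 to 0 without any 1 library. For the difference between capture sizes it was 0 to 1 without any 1 library. The causes were not tested. Over all regions, DESeq2 called 2120 in patches against 583 in edgeR, the replicate block 215, the joint fit 0, thinned patches 1165, patches without both libraries numbered 2 1156, and the fits without 1 library 259 to 673, each lower by over 1.5 times except those without B or T patch 2. At 100 nuclei the joint fit called 6954 against 4, which were mitochondrial. The test of the difference between sizes called 0, but 419 and 97 without T library 1 or 2 of 100 nuclei and at most 14 without any other library.

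Of the single-region values in patches, 282 kept direction and side of the threshold, 11 gained and 6 lost a call, and 5 changed sign. The Cd72 region 1.96 kb before the start site turned to 0.05 and 0.03 without B patch 3 or 4 and to 0.22 and 0.03 without T patch 1 or 5, over a range of -0.26 to 0.22 without any 1 library. The Cd81 region at 0.173 kb turned to -0.04 without B patch 1, over a range of -0.04 to 1.63. At 100 nuclei, 47 of the 144 values had reads.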
